A study of Mus musculus with 18 samples.

Results

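The family of miR-15 and miR-16 with miR-195, miR-497 and miR-322 was described in BV-2 cells, an immortalised mouse microglial line, from every row that carries one of these names (miR-15a and miR-15b, miR-16, miR-195a and miR-195b, miR-497, miR-322). The rule took names alone and no measured value. It found 22 of 2134 rows, of which 8 were hairpin rows (written mir) and 14 were mature arms (written miR). The 18 small RNA libraries formed 6 groups of 3. Control cells received neither drug nor LPS, and the other groups received LPS (lipopolysaccharide, a bacterial cell wall component that activates microglia) at 100 ng/ml, CBD (cannabidiol) at 10 μM, THC (tetrahydrocannabinol) at 10 μM, or the cannabinoid followed by LPS (CBD+LPS and THC+LPS). By the study's methods the cannabinoid was given 2 h before LPS, and LPS was left for 4 h. All groups were the same cell line in medium with 5% fetal calf serum, and the sources used here do not say whether the 3 samples of a group were separate cultures, so p-values measure the spread between these samples.

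A microRNA hairpin is cut to a short duplex, and either strand of it, the 5p or the 3p arm, can be loaded into an Argonaute protein. Bases 2 to 8 of the loaded strand, the seed, do most of the pairing with target mRNAs. The miR-15/16 family is known for restraining the cell cycle through targets such as cyclins, and Bcl2 is another known target. miR-322 is the rodent counterpart of human miR-424. The arms of the family that share a seed are set out here because the seed, shown in capitals, is what makes them a family, while the letters after it differ. Sequences are those of RefSeq on GRCm38.p6, in which 21 of the 22 rows were matched.
mmu-miR-16-5p: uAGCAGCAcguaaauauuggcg
mmu-miR-15a-5p: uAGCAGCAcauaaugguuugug
mmu-miR-15b-5p: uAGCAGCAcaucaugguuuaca
mmu-miR-195a-5p: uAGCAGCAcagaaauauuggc
mmu-miR-195b: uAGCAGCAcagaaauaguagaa
mmu-miR-322-5p: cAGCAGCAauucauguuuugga
mmu-miR-497-5p: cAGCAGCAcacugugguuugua
Against miR-16-5p, miR-195a-5p had the same base at 19 of 21 positions, miR-15a-5p at 16 of 22, miR-15b-5p at 14 of 22, miR-322-5p at 12 of 22 and miR-497-5p at 11 of 22. The opposite arms do not carry this seed, and those of the mir-16 loci are shown because they are the mature arms that tell the loci apart.
mmu-miR-16-1-3p: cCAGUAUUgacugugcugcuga
mmu-miR-16-2-3p: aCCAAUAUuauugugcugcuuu
The 5p strand of both mir-16 hairpins has the same letters, so its reads cannot be assigned to a locus.

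The hairpins lie in pairs on the mouse genome (GENCODE M21, GRCm38). Mir16-1 (chr14:61631880-61631972, minus strand) overlaps an exon of the long noncoding gene Dleu2, and Mir15a (chr14:61632027-61632110, minus strand) lies in an intron of it, 54 bases apart. Mir15b (chr3:69009772-69009835, plus strand) and Mir16-2 (chr3:69009902-69009996, plus strand) lie in an intron of Smc4, which encodes a condensin subunit, 66 bases apart. Mir497 (chr11:70234717-70234800, plus strand) and Mir195a (chr11:70235042-70235135, plus strand) are 241 bases apart, and Mir497 overlaps Mir497b on the other strand. Mir322 (chrX:53054255-53054349, minus strand) is 200 bases from Mir503, and Mir195b stands alone at chr2:56785811-56785907. Levels were given as CPM, reads relative to library size scaled by edgeR's TMM factors.

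Totals ran from 442718 to 1057147 reads per sample, so that 3 reads stood for 2.98 to 6.38 CPM, a floor for counting error alone. Of the markers of myeloid cells 4 of 4 had reads in all 18 samples, at unlike levels. miR-142-5p lay between 7254 and 12346 CPM. The medians were 1849 CPM for miR-142-3p, 132 CPM for miR-223-3p and 8.57 CPM for miR-223-5p. The lowest value of miR-223-5p, 1.43 CPM, was below the floor of 3 reads. Of the 3 neuronal markers miR-124-3p was at 0 in 15 samples, while miR-128-3p (median 465 CPM) and miR-9-5p (median 9.82 CPM) had reads in every sample. The liver marker miR-122-5p was at 0 in 13 samples. On the epithelial list miR-141-3p had a median of 7678 CPM, and miR-200a-3p, miR-200b-3p and miR-200c-3p were also present in every sample.

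One arm carried most of the family. mmu-miR-16-5p had 40527 CPM on average, ranged from 32039 to 49051 CPM over the 18 samples and held rank 6 of all 2134 rows by mean level. Below it came miR-322-5p with 1635 CPM, miR-15a-5p with 1142 CPM and miR-15b-5p with 967 CPM, followed by miR-322-3p with 209 CPM, miR-497-5p with 140 CPM and miR-195a-5p with 127.6 CPM. The mature arms are 21 or 22 bases long, so these levels were read without a length correction. miR-16-5p was 24.8 times the next arm, and its range did not overlap that of any other member.

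Neighbours in this order were separated to unlike degrees. miR-322-5p exceeded miR-15a-5p in 18 of 18 samples although the ranges overlapped, and miR-15a-5p exceeded miR-15b-5p in 15 of 18. miR-497-5p exceeded miR-195a-5p, its partner on chromosome 11, in only 12 of 18 samples and the ranges overlapped. The order of this pair was not tested. Between miR-15b-5p and miR-322-3p lay a step of 4.62 times with no overlap. At the foot of the order miR-16-2-3p (14.8 CPM) and miR-195a-3p (12.7 CPM) overlapped, miR-497-3p had 19 reads in all, and miR-195b had 2 reads in all, with none in 16 samples, which is below the 10 reads needed for a test.

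Hairpin rows hold reads assigned to the precursor rather than to an arm. mmu-mir-16-1 stood far above the others with 346 CPM (range 231 to 677), against 41.7 CPM for mmu-mir-16-2 (range 27.8 to 53.2), a ratio of 8.30 between hairpins of 93 and 95 bases. mmu-mir-15a had 38.2 CPM (range 27.4 to 49.7) and mmu-mir-15b 37.3 CPM (range 21.3 to 74.5). mir-195a, mir-497, mmu-mir-322 and mir-195b had 84, 62, 36 and 13 reads in all the samples together. In mmu-mir-322 no sample exceeded 6 reads and 4 samples had none, so a difference in this row rests on single reads.

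**Figure D1:**
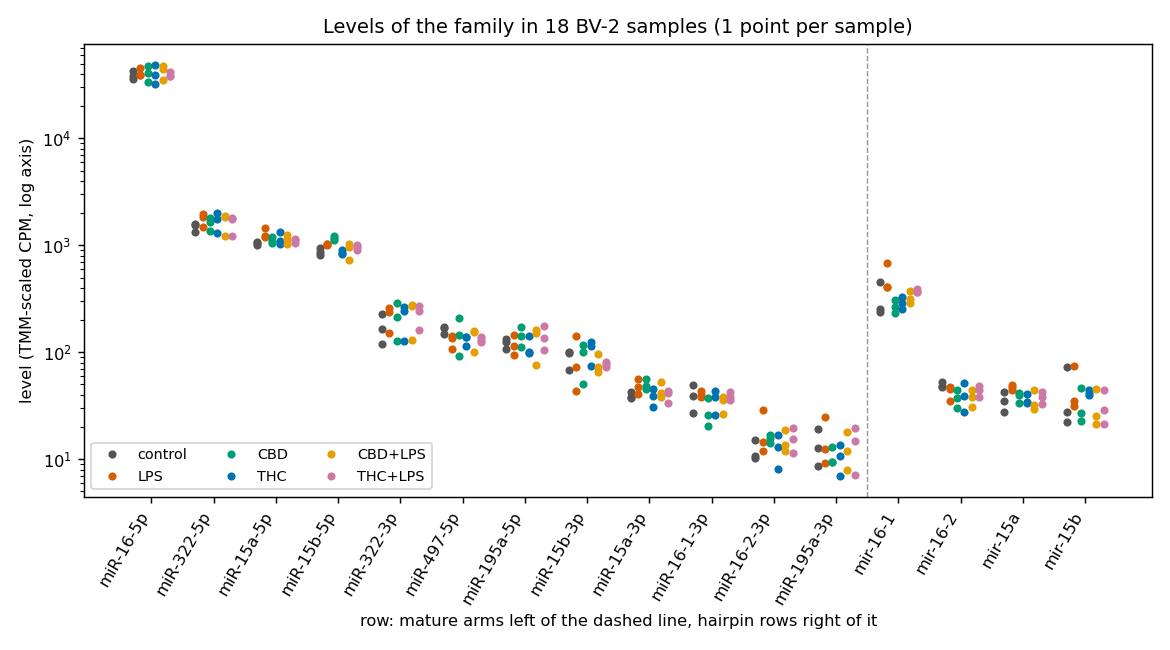
Level of each member with a mean above 10 CPM in each of the 18 samples, on a log axis of TMM-scaled CPM, with 1 point per sample coloured by group; mature arms stand left of the dashed line and hairpin rows right of it. miR-16-5p sits between 32039 and 49051 CPM, above every other row, and mir-16-1 is the highest hairpin row.

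miR-16-5p held most of the family in every sample, and the shares of the minor arms were small. Among reads of the mature arms miR-16-5p took between 88.6 and 91.1% (median 90.3%), miR-322-5p 2.91 to 4.51%, miR-15a-5p 2.26 to 2.88% and miR-15b-5p 1.58 to 2.92%. The arms with the shared seed together made up 98.9 to 99.3% of the family. The mature arms accounted for 3.91 to 5.28% of all reads of a sample. Their summed level was 43226 ± 3391 CPM (SD, n = 3) in control, 46014 ± 3540 with LPS, 45568 ± 7426 with CBD, 44324 ± 9178 with THC, 46912 ± 7170 with CBD+LPS and 43616 ± 1927 with THC+LPS, and the ranges of all groups overlapped that of control.

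At every locus with both arms measured the 5p arm predominated, and the excess differed between loci. The 5p share of the reads of both arms was 99.9% for miR-16 (550071 reads against 688 for both 3p arms), 99.0% for mir-497, 96.3% for mir-15a, 91.5% for mir-15b, 90.9% for mir-195a and 88.7% for mir-322. Thus 7.83 reads of miR-322-5p were counted for each read of miR-322-3p, against 800 reads of miR-16-5p for each read of its 3p arms. The group means of these shares were furthest apart for mir-195a, from 87.9 ± 7.63% with LPS to 92.7 ± 2.71% with CBD (SD, n = 3). For mir-322 the mean share ran from 87.7 ± 0.929% with THC+LPS to 89.9 ± 2.23% in control (SD, n = 3), and for mir-15b from 89.3 ± 2.23% with THC to 92.9 ± 2.75% with CBD.

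**Figure D2:**
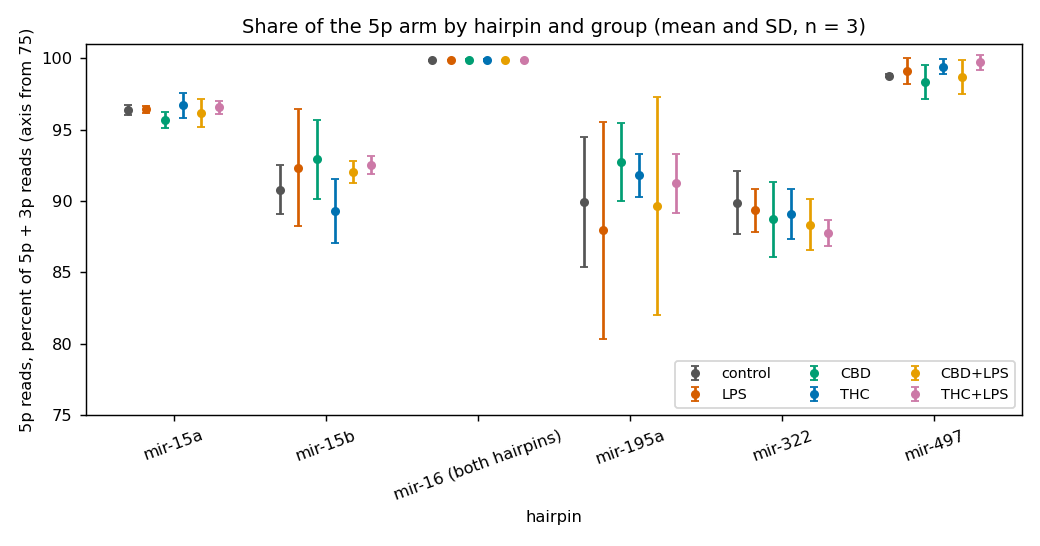
Mean share of 5p reads among the 5p and 3p reads of each hairpin, in percent on an axis that starts at 75, with the SD of 3 samples per group as bars. The share lies near 99.9% for miR-16 in all 6 groups and is lowest, below 93%, for mir-15b, mir-195a and mir-322.

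The 2 mir-16 loci were compared by their 3p arms and hairpin rows, which need not give the share of each locus in miR-16-5p. The 3p arms held only 688 reads. How reads that map to both hairpins were counted is not given in the sources used here. miR-16-1-3p took 56.9 to 82.1% (median 71.8%) of the reads of both 3p arms, and mir-16-1 took 83.3 to 93.5% (median 89.2%) of the reads of both hairpin rows. In control the hairpin share of mir-16-1 was 83.3 to 89.5%, and with LPS it was 90.1 to 93.5%, so these groups did not overlap on this measure, for which no test was run. On the 3p arms the groups overlapped (63.9 to 82.1% in control and 56.9 to 76.9% with LPS).

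Treatments were compared with limma on log2(CPM + 1), a scale that understates changes of low rows. Of the 22 members, 21 had at least 10 reads and were tested among 1363 rows. A difference between 2 groups was called where the unadjusted p was no more than 0.005 and the change reached 1.5-fold, the criterion by which the study picked miRNAs for further analysis, and all other tests at a Benjamini-Hochberg adjusted p of at most 0.1, the study's ranking threshold. By limma 0 of 21 members were called in each of the 15 comparisons, and edgeR's quasi-likelihood test and DESeq2 on the recovered reads also called 0 in each. At the adjusted threshold the comparisons of 2 groups gave 0 of 21 members as well. By limma the criterion called from 0.147 to 3.3% of all rows in these comparisons, so 0 of 21 does not set the family apart. The shares of all rows with edgeR, with DESeq2 and at the adjusted threshold in these comparisons are not given here. In the F test across the 5 treatments 1.76% of all rows were called. With an unadjusted p up to 0.05 it held 1 of 21 members, mir-16-1 (unadjusted p = 0.041, limma adjusted p = 0.528), against 8.36% of all rows.

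No abundant arm passed the criterion with LPS. Across the 6 seed-sharing arms with at least 1000 reads, the fold changes ran from 0.781 for miR-497-5p to 1.24 for miR-15a-5p, with 95% confidence limits no lower than 0.526 and no higher than 1.64. miR-16-5p measured 36256, 38662 and 42582 CPM in control and 45549, 39320 and 38876 CPM with LPS. Its groups overlapped, and the fold change was 1.05 (95% confidence interval 0.815 to 1.36).

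The hairpin row mir-16-1 had the smallest p of the members with LPS. It measured 455, 257 and 238 CPM in control samples 22, 28 and 34, and 677, 410 and 407 CPM in LPS samples 23, 29 and 35. Control sample 22 lay above 2 of the 3 LPS samples, so the groups overlapped, while the other 2 control samples lay below all of them. The difference was 0.67 on the log2 scale (SE 0.25), or 1.60-fold (95% confidence interval 1.10 to 2.31, unadjusted p = 0.0165, limma adjusted p = 0.735). It did not pass the criterion. Without control sample 22 it passed (log2 difference 0.97, unadjusted p = 0.000903), and without LPS sample 23 it was 0.43 (unadjusted p = 0.112). With a covariate for samples 22 to 27, each from a different group, it passed at the same size (unadjusted p = 0.00129, adjusted p = 0.0835). That set was chosen because it stood apart in earlier work on these data, and mir-16-1 differed by it. The fit is therefore no independent support. Each run of 6 numbers (22 to 27, 28 to 33 and 34 to 39) held 1 sample of every group. In every run the LPS sample was above the control sample. With these runs as a block, an alternative chosen after seeing the data, the difference passed too (unadjusted p = 0.0017, limma adjusted p = 0.118). Control sample 22 also had the fewest reads of all samples, 442718, and the part of depth in this difference was not tested. Samples 28 to 39 alone hold 2 samples per group and leave out control sample 22. There the log2 difference was 0.72 (unadjusted p = 0.000147, adjusted p = 0.0105).

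The arm that is specific to this hairpin overlapped between the groups. miR-16-1-3p measured 48.9, 39.3 and 26.8 CPM in control and 37.9, 39.7 and 43.3 CPM with LPS, a log2 difference of 0.11 (95% confidence interval -0.55 to 0.77). The neighbouring hairpin mmu-mir-15a measured 42.5, 27.4 and 34.95 CPM in control and 49.7, 47.7 and 44.3 CPM with LPS. All LPS samples of mir-15a lay above all control samples, by 1.36-fold (95% confidence interval 0.927 to 1.99, unadjusted p = 0.108, limma adjusted p = 0.904). The hairpin from the other locus, mmu-mir-16-2, measured 53.2, 47.9 and 47.8 CPM in control and 47.1, 45.0 and 35.02 CPM with LPS, with all LPS samples below control (0.851-fold, 95% confidence interval 0.565 to 1.28, unadjusted p = 0.419, limma adjusted p = 0.966).

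In the LPS comparison 1.54% of all rows were called. With an unadjusted p up to 0.05 there were 2 of 21 members, against 5.87% of all rows, namely mir-16-1 and mmu-mir-322. The latter had 1, 2 and 5 reads in control and 2, 0 and 0 reads with LPS (unadjusted p = 0.0403, limma adjusted p = 0.784). In 6 of 21 members, 28.6%, the LPS and control groups did not overlap, against 9.39% of all rows. These were miR-15a-5p, miR-15b-5p and mir-15a, higher with LPS, and mir-16-2, mir-195a and miR-497-5p, lower. mir-195a had only 5, 5 and 8 reads in control and 3, 1 and 8 with LPS. miR-15a-5p measured 1042, 1016 and 1067 CPM in control and 1442, 1198 and 1233 CPM with LPS (1.24-fold, 95% confidence interval 0.988 to 1.55, unadjusted p = 0.0627, limma adjusted p = 0.869). The median log2 difference of the 21 members was 0.23, beside 0.11 over all rows tested.

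**Figure D3:**
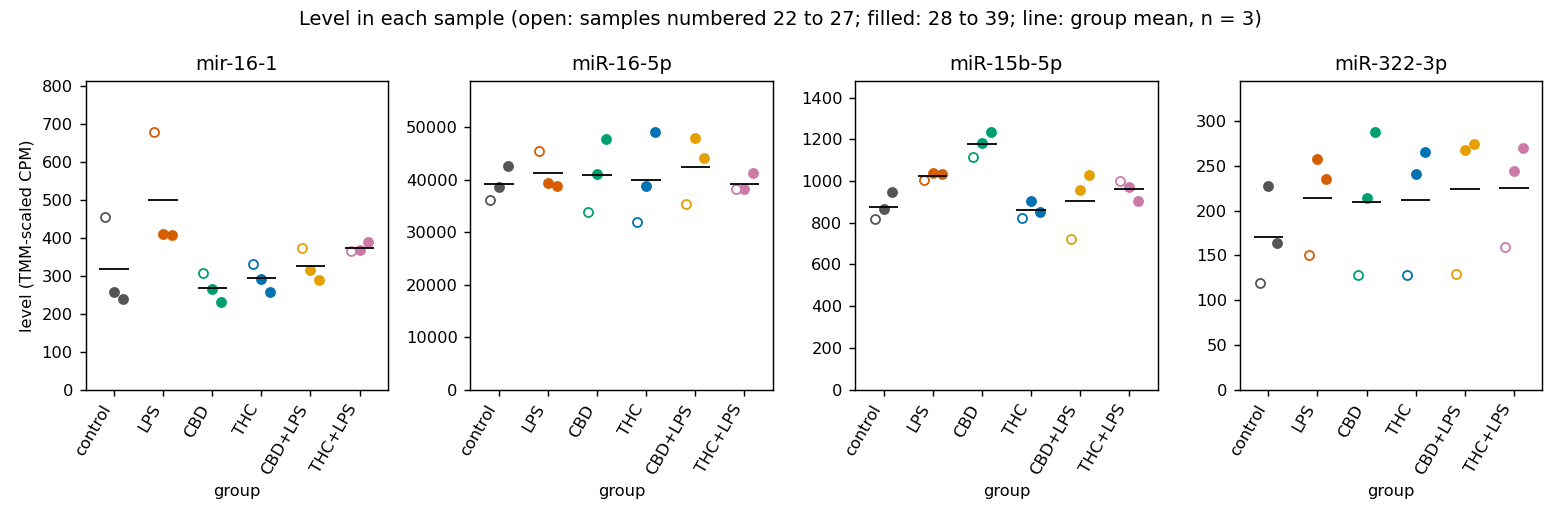
Level in TMM-scaled CPM, on axes from 0, of mir-16-1, miR-16-5p, miR-15b-5p and miR-322-3p in each sample by group, with a line at the group mean (n = 3) and open points for samples 22 to 27. Control sample 22 stands at 455 CPM for mir-16-1 while the other control samples are at 257 and 238 CPM, miR-15b-5p is highest in the CBD group, and the open points of miR-322-3p are the lowest of every group.

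With CBD, miR-15b-5p was the member with the smallest p. It measured 817, 867 and 945 CPM in control and 1113, 1181 and 1233 CPM with CBD, so that all CBD samples lay above all control samples and above all samples of every other group as well. Group means were 876 ± 64.6 CPM in control and 1176 ± 60.2 CPM with CBD (SD, n = 3). The difference was 1.34-fold (95% confidence interval 1.07 to 1.69, unadjusted p = 0.0148, limma adjusted p = 0.357) and did not pass the criterion, which also asks for 1.5-fold. The 3p arm did not share it, with 97.8, 68.4 and 100.2 CPM in control and 117.6, 50.7 and 101.2 CPM with CBD. Scaled to miR-103-3p and miR-191-5p, the study's reference miRNAs, the log2 difference of miR-15b-5p was 0.23 (unadjusted p = 0.215) in place of 0.43, and the median over all rows shifted by -0.15.

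Of all rows 1.61% were called with CBD. With an unadjusted p up to 0.05, CBD differed from control in 1 of 21 members, miR-15b-5p, against 9.17% of all rows. The groups did not overlap in 3 of 21 members, beside 10.2% of all rows (miR-15b-5p and miR-15a-3p higher, mir-16-2 lower). miR-16-5p measured 33952, 41131 and 47853 CPM with CBD, a fold change of 1.04 (95% confidence interval 0.804 to 1.34). The range over its 3 samples was wider than that of control.

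With THC no member passed the criterion. Fold changes of the 6 abundant seed-sharing arms ran from 0.795 for miR-497-5p to 1.12 for miR-322-5p. No member reached an unadjusted p of 0.05 (0 of 21, beside 3.37% of all rows), and 0.44% of all rows were called. miR-15b-5p measured 823, 904 and 854 CPM with THC, within the spread of control (0.983-fold, 95% confidence interval 0.782 to 1.24). Groups did not overlap in 3 of 21 members, beside 6.82% of all rows, all of them lower with THC (mir-195a, miR-497-3p and miR-497-5p). mir-195a had 5, 5 and 8 reads in control and 4, 4 and 3 with THC. miR-497-3p had 1, 1 and 2 reads in control and 1, 0 and 1 with THC, so its separation rests on single reads. The largest by read number, miR-497-5p, measured 170, 149 and 174 CPM in control and 114, 138 and 139 CPM with THC (0.795-fold, 95% confidence interval 0.536 to 1.18, unadjusted p = 0.236, limma adjusted p = 0.977).

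**Figure D4:**
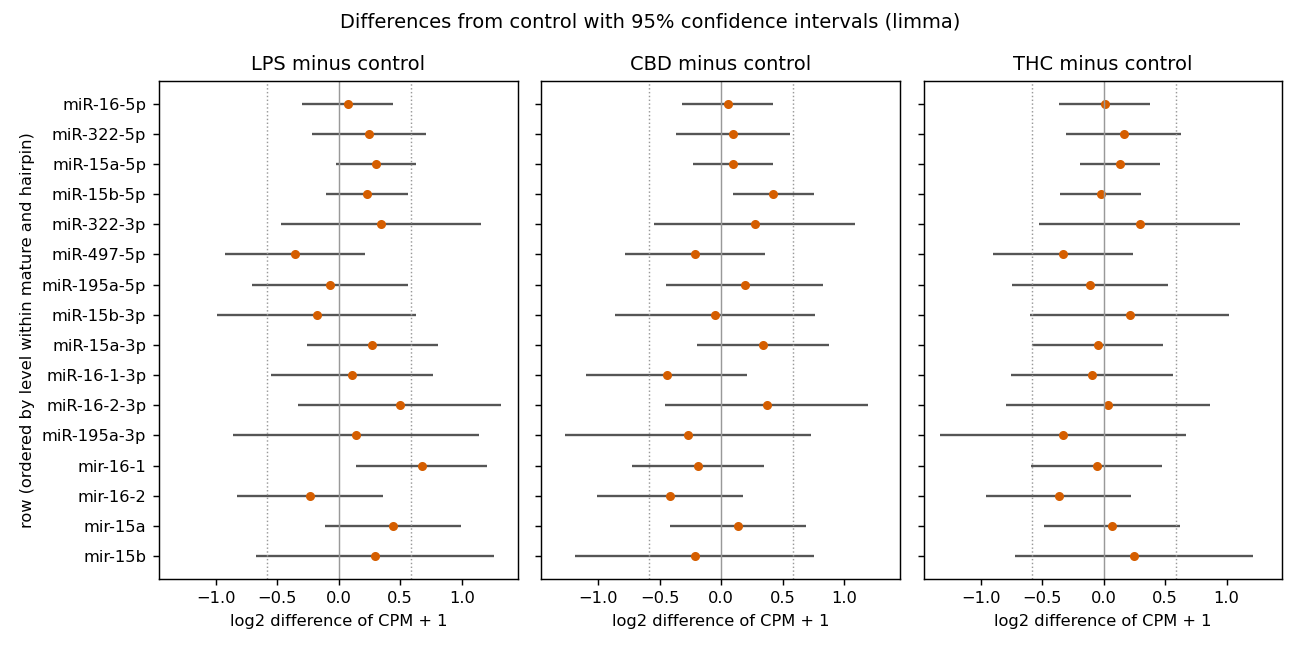
Log2 difference of CPM + 1 from control for LPS, CBD and THC (points) with 95% confidence intervals from limma (lines) for the members with a mean above 10 CPM; dotted lines mark 1.5-fold in either direction. The interval lies wholly above 0 for mir-16-1 with LPS and for miR-15b-5p with CBD, and it includes 0 for all other rows plotted.

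CBD and THC, plant cannabinoids of the same molecular formula in which CBD has an open ring where THC has a closed one, were set against each other at the same dose and time. miR-15b-5p was higher with CBD by 1.37-fold (95% confidence interval 1.09 to 1.72, unadjusted p = 0.0107, limma adjusted p = 0.167), with no overlap between the groups. For the other 5 abundant seed-sharing arms the fold changes of CBD over THC were 1.03 for miR-16-5p (95% confidence interval 0.798 to 1.33), 0.957 for miR-322-5p (0.694 to 1.32), 0.974 for miR-15a-5p (0.779 to 1.22), 1.23 for miR-195a-5p (0.792 to 1.91) and 1.09 for miR-497-5p (0.733 to 1.61). These intervals leave room for differences in either direction. Of all rows 3.3% were called in this comparison and 16.2% had an unadjusted p up to 0.05, which held for 1 of 21 members. Groups did not overlap in 3 of 21 members, beside 20.6% of all rows (miR-15b-5p, miR-15a-3p and miR-497-3p, all higher with CBD). miR-497-3p had 2, 1 and 1 reads with CBD and 1, 0 and 1 with THC, so its separation rests on single reads. With LPS present, CBD over THC gave 0.932-fold for miR-15b-5p (95% confidence interval 0.741 to 1.17), and 0 of 21 members had an unadjusted p up to 0.05, beside 2.64% of all rows, with 0.147% of all rows called. These 2 comparisons were those made between the cannabinoids, and by limma as reported the adjusted p of a member was at least 0.167 in both. For miR-15b-5p without LPS the adjusted p was 0.0537 with DESeq2 and 0.0672 with a covariate for samples 22 to 27. It was 0.0129 in samples 28 to 39 alone (2 samples per group) and 0.0929 with the runs of 6 numbers as a block. The change was less than 1.5-fold in each.

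In LPS-treated cells mir-16-1 was lower in every sample given a cannabinoid than in the samples with LPS alone, without passing the criterion. It measured 372, 316 and 289 CPM with CBD+LPS and 366, 366 and 390 CPM with THC+LPS, all below the 3 samples with LPS alone. Against LPS the fold change was 0.671 with CBD+LPS (95% confidence interval 0.463 to 0.972, unadjusted p = 0.0362, limma adjusted p = 1) and 0.774 with THC+LPS (0.534 to 1.12, unadjusted p = 0.162, limma adjusted p = 1). Against control it was 1.07 with CBD+LPS (0.739 to 1.55) and 1.23 with THC+LPS (0.852 to 1.79). Without LPS sample 23 the log2 difference of CBD+LPS from LPS was -0.33 (unadjusted p = 0.211) in place of -0.58. With a covariate for samples 22 to 27 it kept its size (unadjusted p = 0.00424) and remained short of 1.5-fold. The comparisons share the control or the LPS samples and are not independent.

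For CBD+LPS against LPS 0.22% of all rows were called. With an unadjusted p up to 0.05 there was 1 of 21 members beside 3.23% of all rows, and 2 of 21 members did not overlap beside 9.32% (mir-16-1 and mir-15a, lower with CBD+LPS). For THC+LPS against LPS 0.22% of all rows were called too, 1 of 21 members had an unadjusted p up to 0.05 beside 2.35% of all rows, and 4 of 21 did not overlap beside 7.19%, all lower with THC+LPS (mir-15a, miR-15a-5p, miR-15b-5p and mir-16-1). The one with the small p was mmu-mir-322, with 2, 0 and 0 reads in LPS and 1, 4 and 6 reads in THC+LPS (unadjusted p = 0.0274, limma adjusted p = 1). Against control, 0 of 21 members had an unadjusted p up to 0.05 with CBD+LPS, beside 6.31% of all rows with 1.39% called, and 0 of 21 with THC+LPS, beside 4.77% with 1.83% called.

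The effect of CBD on miR-15b-5p was also compared between resting and LPS-treated cells. CBD+LPS samples measured 723, 959 and 1029 CPM and LPS samples 1004, 1037 and 1035 CPM, so that with LPS present the cells given CBD were at 0.872 of the LPS level (95% confidence interval 0.693 to 1.10). The interaction was -0.62 on the log2 scale (SE 0.22, unadjusted p = 0.0121, limma adjusted p = 0.909) and did not pass. It was the only interaction of CBD with LPS among the 21 members with an unadjusted p up to 0.05, beside 4.77% of all rows, and 0% of all rows were called. For THC and LPS 0 of 21 members reached that level, beside 3.74% of all rows, and again 0% were called.

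Pooled over the cannabinoid treatments, LPS gave 1.36-fold for mir-16-1 (95% confidence interval 1.10 to 1.67, unadjusted p = 0.00663, limma adjusted p = 0.258). At the same size it was called with a covariate for samples 22 to 27 (adjusted p = 0.0356) and with the runs of 6 numbers as a block (adjusted p = 0.0456). In samples 28 to 39 alone (2 samples per group) its log2 difference was 0.49 (adjusted p = 0.0135). The hairpin row mir-195b had a smaller p (0.00518, limma adjusted p = 0.235) on 13 reads, of which 12 were in samples with LPS. It too was called with the runs as a block (adjusted p = 0.0973). With LPS pooled 2 of 21 members had an unadjusted p up to 0.05 beside 6.97% of all rows, and 1.54% of rows were called. With CBD pooled over LPS it was 1 of 21 beside 6.82%, with 0.293% of rows called, and the member was mir-16-1 (0.767-fold, 95% confidence interval 0.594 to 0.992, unadjusted p = 0.0436, limma adjusted p = 0.692). With THC pooled it was 0 of 21 beside 3.01%, with 0% of rows called.

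Some members differed by the number of the sample. The labels number the samples 22 to 39 without saying what the numbers stand for, and samples 22 to 27 hold 1 sample of each group. This set stood apart in earlier work on these data, so p-values for it do not test a split chosen beforehand. miR-322-3p measured 119 CPM (control), 150 CPM (LPS), 127.6 CPM (CBD), 128.3 CPM (THC), 129.7 CPM (CBD+LPS) and 159.9 CPM (THC+LPS) in samples 22 to 27, and 164 to 288 CPM in samples 28 to 39. The sample from 22 to 27 was the lowest in 6 of 6 groups, and the mean was 136 CPM against 246 CPM in the other samples (log2 difference -0.85, SE 0.10, limma adjusted p = 2.08e-05). miR-322-5p measured 1218 to 1495 CPM in samples 22 to 27 and 1554 to 1994 CPM in samples 28 to 39. Neither arm overlapped between the sets. miR-322-5p was likewise lowest in 6 of 6 groups (1325 against 1790 CPM, log2 difference -0.43, SE 0.07, limma adjusted p = 0.000211). The hairpin mmu-mir-15b went the other way, at 53.7 against 29.1 CPM (log2 difference 0.86, SE 0.18, limma adjusted p = 0.00298), and was highest in 5 of 6 groups. Control sample 22 and LPS sample 23 had the highest levels of mir-15b, 72.3 and 74.5 CPM, while samples 28 to 39 ran from 21.3 to 44.8 CPM. mir-16-1 was also higher in samples 22 to 27, at 418 against 310 CPM (log2 difference 0.41, SE 0.11, limma adjusted p = 0.0148).

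These 4 members were 4 of 21 at an adjusted p of at most 0.1, beside 18.1% of all rows, so the share in the family was near that of all rows. miR-16-5p averaged 36918 CPM in samples 22 to 27 and 42332 CPM in the others (limma adjusted p = 0.157). The 5p share of mir-322 was 88.5 to 91.8% in samples 22 to 27 and 86.1 to 90.4% in samples 28 to 39. For mir-195a it was 79.1 to 93.5% in samples 22 to 27 and 90.1 to 95.3% in samples 28 to 39. miR-103-3p, one of the study's reference miRNAs, was lowest in samples 22 to 27 in 6 of 6 groups as well, at 5110 against 7038 CPM. What these numbers stand for was not tested.

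The rows that varied most like each abundant arm were sought among 200 other mature rows with at least 1000 reads, by Pearson's r of log2(CPM + 1) over the 18 samples, which share depth and scaling. miR-322-5p came closest to miR-301a-3p (r = 0.944), miR-29c-5p (0.943) and miR-223-3p (0.937), and miR-15b-5p to miR-106b-5p (0.902). Over samples 28 to 39 alone, without the difference between the numbered sets, the values for miR-322-5p were 0.875, 0.813 and 0.668. The nearest row to miR-16-5p was miR-183-5p (0.768), to miR-15a-5p miR-27a-3p (0.725), to miR-195a-5p miR-183-3p (0.806) and to miR-497-5p miR-1981-5p (0.751). Within the family both arms of mir-322 varied together (r = 0.907 over 18 samples and 0.688 over the 12 samples numbered 28 to 39). miR-15a-5p and miR-15b-5p did so weakly (0.326), and mir-16-1 did not follow miR-16-5p over the 18 samples (-0.194). On average mir-16-1 was higher and miR-16-5p lower in samples 22 to 27, and their r over samples 28 to 39 was not computed. With the hairpin rows mir-15a and mir-15b, mir-16-1 had r = 0.653 and 0.620.

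Relatives outside the name rule comprised other rows with the same seed (miR-6342, miR-6353 and miR-6419), the neighbours of Mir322 on the X chromosome (miR-503, miR-351, miR-542, miR-450a and miR-450b) and miR-103 and miR-107, whose seed is shifted by a base. Of 31 such rows 26 had at least 10 reads, and 0 of 26 were called by limma in each of the 15 comparisons. In no comparison were more than 3.3% of all rows called. With an unadjusted p up to 0.05 the most in any comparison was 3 of 26, in CBD against THC, beside 16.2% of all rows. Among the rows with the same seed, miR-6342 had 366 reads and the others 1 read each, against 550071 for miR-16-5p.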

How the data were processed

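Small RNA of BV-2 cells was sequenced in 18 samples, 3 in each of 6 groups taken from the sample titles. By the study's methods, the authors used BWA to map reads to miRBase, kept reads with no more than 10 mappings, and used edgeR. The version of miRBase used for mapping (one is named for target prediction only), and whether a read with several mappings counted for each, are not given in the sources used here. The authors deposited, per sample, CPM scaled by TMM factors. In 11 samples the deposited total exceeds that of unscaled CPM, and these columns were recorded as a scaled signal of the same kind. Every value was a whole multiple of that of 1 read, within 2.86e-05 of a whole number, which gave back the reads.

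Rows with at least 10 reads (1363) were tested with limma 3.58.1 (R 4.3.3, mean-variance trend) on log2(CPM + 1), 2-sided, with 6 groups in 1 model, or LPS and cannabinoid as additive effects for pooled values. The reads were also tested with edgeR 4.0.16 and DESeq2 1.42.0. Alternatives changed the scaling, pseudocount, filter, rows, covariates, threshold and samples, and a block of numbered runs was added after the data were seen. The tests were checked on simulated data in which 200 rows changed. Members, relatives, tests and the rule for named rows (every member, relatives where a result turned on them, and the 3 rows most like each abundant arm) were chosen with earlier results of these data known. Intervals and floors cover counting error or the spread between samples only. Sequences came from RefSeq, positions from GENCODE M21.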

Additional observations from a re-analysis of the deposited data

Results flagged for a closer look

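In the limma interaction test of CBD and LPS, 1 of 21 members, miR-15b-5p, had an unadjusted p of at most 0.05. This share was near the 4.77% of all rows, and 0% of all rows were called. The interaction was -0.62 on the log2 scale (unadjusted p = 0.0121, adjusted p = 0.909). With CBD alone 3 of 3 samples lay above all control samples, and with CBD+LPS the values overlapped those with LPS alone. Over the samples left out in turn the interaction ran from -0.72 to -0.47. Groups of 3 samples are too small for the check for single outlying samples.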

How the results depend on the processing

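Of 519 counts of called members under the alternatives, 505 were 0 as reported and 14 were not. The shares of all rows called under the same alternatives are not given here. The counts below are therefore not read as a result about the family. With a covariate for samples 22 to 27 the count was 1 in the F test, in LPS against control and in LPS pooled, each time mir-16-1. In samples 28 to 39 alone, with 2 samples per group, the count was 3 in the F test (miR-15b-5p, mir-16-1 and mir-322). It was 2 in LPS against control (mir-16-1 and mir-322). It was 1 in THC+LPS against control and in LPS pooled (mir-16-1) and 1 in THC+LPS against LPS (mir-322). With each sample left out in turn the count ran from 0 to 1 in LPS against control (1 without control sample 22, mir-16-1) and from 0 to 1 in LPS pooled (1 without LPS sample 23 or control sample 28, mir-195b), and was 0 in the other 13 comparisons. Of the 300 fold changes of named members under alternatives none turned direction, and 12 passed the threshold that they miss as reported. Library size alone as scaling gave 0.52 for mir-16-1 with LPS (unadjusted p = 0.115) and the reference miRNAs gave 0.46 (unadjusted p = 0.237). For miR-15b-5p, CBD against THC gave 0.17 with the reference miRNAs (unadjusted p = 0.352), under which the median over all rows shifted by -0.23. The cause of these changes was not tested. The labels give no replicate number that groups share. A replicate block for the runs 22 to 27, 28 to 33 and 34 to 39, chosen after seeing the data, gave 1 in the F test and in LPS against control (mir-16-1), 2 in LPS pooled (mir-16-1 and mir-195b) and 0 in the other 12 comparisons. Over all rows the deviations from the group means correlated by over 0.1 in 16 of 45 pairs of samples of the same run (median 0.06). For pairs from different runs it was 20 of 90 (median -0.03). By run it was 9 of 15 pairs in samples 22 to 27 (median 0.11). It was 3 of 15 in samples 28 to 33 (median 0.06) and 4 of 15 in samples 34 to 39 (median 0.03). Whether the runs pair the samples was not tested. Rows under 100 reads (6 of the 22) have values within a few reads of the floor.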
